A study of Mus musculus with 40 samples.

Results

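Heat shock proteins and their partner chaperones were followed through the sorted cells of a mouse colon tumor model. The set held 10 of the 45706 genes in the deposited tables, chosen by symbol for what the proteins do, by a choice made with earlier results of these data known: Hspa1a, Hspa1b, Dnajb1, Hsph1, Hspa8, Hsp90aa1, Hspb1, Hspd1, Hspe1 and Bag3. Each symbol matched 1 Ensembl gene, and every gene had a value in all 40 RNA-sequencing libraries, which formed 10 groups of 4. The sorted cells were CD11b+ Ly6G+ neutrophils and CD11b+ Ly6C-high monocytes, each taken from tumor tissue, tumor-bearing blood and healthy blood, and CD45- EpCAM+ epithelial cells and CD45- EpCAM- stromal cells, each taken from tumor tissue and healthy colon. Tumor-bearing mice carried Cdx2CreERT2, a tamoxifen-activated Cre recombinase expressed in the colon, and Apc fl/fl, and had received a single tamoxifen injection of 25 mg/kg at 8 to 10 weeks of age. Their strain was given as C57Bl6/Sv129, with the last number running upward from label to label. Healthy mice were C57Bl6 without transgene or agent, so strain, transgene and tamoxifen all differ between healthy and tumor-bearing mice and cannot be told apart. The age at analysis is not given in the sources used here. The titles name 23 animals, of which 15 appear in more than 1 library, and 34 of the 40 libraries share an animal with a library of another group. Within a group no animal was named more than once, and the titles of 4 blood libraries name 2 animals each. Tumor neutrophil and tumor monocyte replicates 2 to 4 came from the same 3 animals. Blood neutrophil and blood monocyte replicates 1, 3 and 4 of tumor-bearing mice came from another 3 (replicate 3 of the neutrophils with a further animal). Tumor neutrophils and their blood counterparts shared 1 animal, and so did tumor monocytes and theirs. The tests below treat libraries as separate samples, and a fit that takes the animal into account is given where 2 or more animals gave several of the libraries compared.

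Heat shock proteins hold, refold or hand over unfolded proteins. When unfolded proteins accumulate, heat shock factor 1 is released, forms trimers and binds heat shock elements, which are inverted repeats of the unit GAA, in front of genes such as Hspa1a. HSP70 proteins (Hspa1a and Hspa1b, which are stress-inducible, and Hspa8, which most cells make at all times) work with an HSP40 that brings the client protein (Dnajb1) and with nucleotide exchange factors that make them let go (Hsph1 and Bag3). Hsp90aa1 encodes the inducible cytosolic HSP90, and Hspb1 a small heat shock protein that keeps unfolded proteins soluble without using ATP. Hspd1 and Hspe1 encode the ring and the lid of the chaperonin of mitochondria. The intestinal epithelium is known to make Hspb1 and inducible HSP70 in response to the gut microbiota.

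The genes lie on 7 chromosomes of mm10 (positions from GENCODE M21). Hspa1a (ENSMUSG00000091971) spans chr17:34969190-34972156 and Hspa1b (ENSMUSG00000090877) chr17:34956436-34959238, both on the minus strand, and their transcripts are 99.2% identical over 2201 bases. Dnajb1 (ENSMUSG00000005483) lies at chr8:83608193-83612653, Hsph1 (ENSMUSG00000029657) at chr5:149614287-149636376, Hspa8 (ENSMUSG00000015656) at chr9:40800984-40810087 and Hsp90aa1 (ENSMUSG00000021270) at chr12:110690605-110702728. Hspb1 (ENSMUSG00000004951) lies at chr5:135887919-135889563 and Bag3 (ENSMUSG00000030847) at chr7:128523616-128546981. Hspd1 (ENSMUSG00000025980, chr1:55077835-55088243, minus strand) and Hspe1 (ENSMUSG00000073676, chr1:55088132-55091307, plus strand) stand head to head and share 112 bases. The libraries did not mark strand, so reads in that stretch cannot be assigned to either gene. All 10 are protein-coding genes.

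Shared bases limit what a count of a single gene means here. Hsp90aa1 kept 32.4% of the counts that it and 3 processed copies (Gm12346, Gm5844 and Gm5511) held together, a share between 31.0% and 38.4% in every library. Hspd1 kept 53.4% of the counts it shared with the pseudogene Hspd1-ps3, Hspb1 68.8% of those with Hsp25-ps1 and Gm9817, and Hspa8 87.3% of those with 4 copies. How reads that fit several places were treated is not given in the sources used here, so levels of these genes and the split between Hspa1a and Hspa1b are uncertain. Dnajb1, Hsph1 and Bag3 had no copy of at least 95% identity over 100 bases among the GENCODE M21 transcripts of other genes. The genome outside these transcripts was not searched.

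The bases in front of the genes are shown because heat shock elements are known to lie there. RefSeq (GRCm38.p6) gave promoter windows of 300 bases, from 250 before to 50 after a transcript start, for 8 of the 10 genes. The 250 bases before the starts of Hspa1a (chr17:34972157-34972406, minus strand) and Hspa1b (chr17:34959239-34959488, minus strand) differed at 3 positions. Capitals mark a pair of inverted units, GAANNTTC or TTCNNGAA, each of which reads the same on both strands:
Hspa1a: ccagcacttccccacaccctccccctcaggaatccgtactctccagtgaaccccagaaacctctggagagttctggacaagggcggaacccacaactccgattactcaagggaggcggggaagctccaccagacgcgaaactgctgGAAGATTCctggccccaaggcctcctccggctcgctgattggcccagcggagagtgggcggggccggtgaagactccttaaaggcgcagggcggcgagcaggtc
Hspa1b: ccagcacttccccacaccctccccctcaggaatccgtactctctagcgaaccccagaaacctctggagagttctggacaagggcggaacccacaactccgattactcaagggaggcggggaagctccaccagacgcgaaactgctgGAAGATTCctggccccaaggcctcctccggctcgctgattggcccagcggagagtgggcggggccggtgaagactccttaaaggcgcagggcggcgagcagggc

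Windows of 30 bases around matches are shown for the other genes that had one, each 5′ to 3′ on the gene's strand (Hsph1 chr5:149636351-149636380 minus, Hspb1 chr5:135887801-135887830 plus, Hspd1 chr1:55088053-55088082 minus, Hspe1 the same bases on the plus strand, Bag3 chr7:128523603-128523632 plus):
Hsph1: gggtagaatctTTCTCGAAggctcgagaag
Hspb1: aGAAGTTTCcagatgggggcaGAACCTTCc
Hspd1: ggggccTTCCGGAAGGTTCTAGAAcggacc
Hspe1: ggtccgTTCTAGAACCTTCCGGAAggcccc
Bag3: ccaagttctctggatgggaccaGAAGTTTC

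Hspd1 and Hspe1 shared 1 run of overlapping matches between their starts, which held 2 forms of 3 units (GAANNTTCNNGAA or TTCNNGAANNTTC). The window around the other annotated start of Hspd1 held none, and neither did the windows of Dnajb1. Hsph1 held 3 pairs, of which 1, the pair shown, lay 33 or 54 bases before a start, depending on the annotated start. The other 2 made a 3-unit form and lay after the start, at 36 and 41 or at 15 and 20 bases. Hspb1 held 2 pairs, at 117 and 97 bases before the start. The pair of Bag3 lay 42 bases after the start. Of 32851 promoter windows of all genes, 15.1% held a pair and 0.603% a 3-unit form, so a pair alone is common. A match describes the letters only.

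Counts on genes totaled 10717873 to 38002939 per library, and ribosomal RNA of mitochondria took 5.32% to 79.0% of them. The deposited RPKM did not follow these totals alone. Relative to them, its scale was 0.642 in healthy blood neutrophil replicate 3, where that share was 5.61%. In healthy epithelial replicate 1 the scale was 1.55 and the share 63.0%. Levels are given as TMM-rescaled RPKM, where RPKM is reads scaled by gene length and by mapped reads. For this the deposited RPKM was multiplied by 1 factor per library (0.619 to 4.40) from the trimmed mean normalization of edgeR. No library pair within a group differed by as little as sampling noise. Marker lists of the sorted types were high in their own groups, with 3 departures. Tumor stromal libraries had summed fibroblast markers of 4.92 to 23.3 TMM-rescaled RPKM, against 238 to 1442 in healthy stromal libraries. Summed neutrophil markers were 8.12 to 1179 in tumor stromal libraries (median 227, 7 of 8 genes with a mean of at least 1) and 4.39 to 28.8 in healthy ones. Epithelial markers were present in several tumor libraries of other cell types: the median of 10 epithelial genes, as a percentage of the tumor epithelial mean, was 88.8, 27.9, 26.9 and 7.63 in replicates 1 to 4 of the tumor neutrophils. It was 1.12, 18.6, 4.93 and 3.99 for the tumor monocytes and 91.1, 56.4, 18.3 and 11.9 for the tumor stroma. It was at most 0.190% in the 16 blood libraries. Single sort markers departed as well. Ly6c2 averaged 3.23 in tumor monocytes, 29.3 in healthy blood monocytes and 4.41 in healthy stromal cells. Ly6g stood at 1.92 to 12.0 in healthy blood neutrophils and 0.955 to 4.84 in healthy blood monocytes. In bulk RNA from sorted cells, more cells of one type and more RNA per cell cannot be told apart.

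Group means of several of the chaperones ranked lower in blood leukocytes than in cells from tissue. For Hspa1a, Hspa1b, Dnajb1, Hsph1, Hsp90aa1, Hspb1 and Hspd1, that is 7 of the 10 genes, the means of all 6 tissue groups ranked above those of all 4 blood groups. The share of all genes with this order was not counted, so whether 7 of 10 is unusual cannot be told. Hspa1a ran from 47.7 ± 19.8 (SD, n = 4) in healthy stromal cells through 29.6 ± 22.5 in tumor monocytes, 27.7 ± 13 in tumor stroma, 14.0 ± 13.3 in healthy epithelium, 13.6 ± 5.17 in tumor epithelium and 12.5 ± 6.30 in tumor neutrophils. It then dropped to 4.06 ± 4.56 in blood monocytes of tumor-bearing mice and to means of 0.757 to 0.896 in the other 3 blood groups. Neighbors in this order overlapped between libraries, except at the step below the blood monocytes of tumor-bearing mice. Hspa8, the constitutive HSP70, followed no such order and ranged from 0.537 in tumor neutrophils to 2.39 in healthy blood neutrophils. Every neighboring pair of groups overlapped, and shared bases leave the Hspa8 level uncertain. For Bag3 and Hspe1, 1 group of blood monocytes ranked above the tumor neutrophils, with overlap. Among the 7 genes, single libraries of blood and tissue overlapped for all but Hsph1 and Hsp90aa1. Dnajb1, for instance, stood at 4.19 to 6.57 in healthy blood neutrophils and at 2.47 to 14.5 in tumor monocytes.

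**Figure D1:**
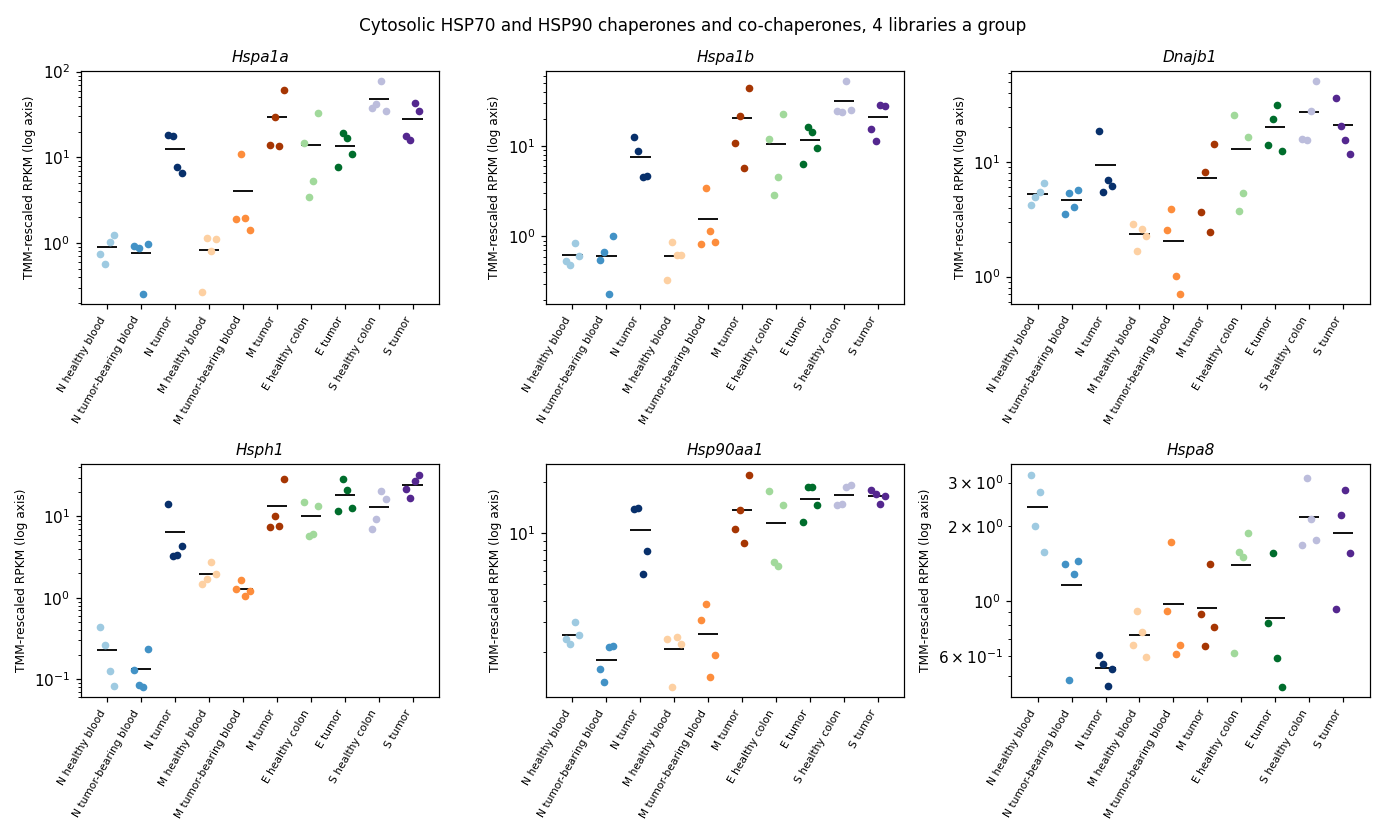
TMM-rescaled RPKM (log axis) of the cytosolic chaperones, 1 point per library and a line at the mean of each group of 4 (N, neutrophils; M, monocytes; E, epithelial cells; S, stromal cells). Hspa1a in the tumor neutrophil libraries sat at 6.59 to 18.2, above all 8 blood neutrophil libraries.

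Whether neutrophils carry more chaperone RNA in the tumor was asked by setting tumor neutrophils against blood neutrophils of the same kind of mice. In tumor neutrophils, 7 of the 10 genes were higher at an adjusted p under 0.05 and none was lower, in a comparison that called 17.9% of 13674 genes (12.5% higher, 5.39% lower). The 7 were the inducible HSP70 genes, the HSP110 gene Hsph1, Hsp90aa1, the small heat shock protein Hspb1, the HSP70 partner Bag3 and mitochondrial Hspd1. Their log2 fold changes ran from 2.75 to 5.88. Dnajb1, Hspa8 and Hspe1 did not pass. All tumor libraries were above all blood libraries for 7 of the 10 genes, and for 9.96% of 23137 genes with at least 10 counts in total. They were below for 0 of the 10 and for 12.6% of those genes. Tumor cells had been released with collagenase IV, Dispase and DNase I and blood cells by lysis of red cells, so the source of a cell and the way it was released cannot be told apart.

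For the inducible HSP70 genes, Hspa1a stood at 18.2, 17.8, 7.61 and 6.59 TMM-rescaled RPKM in tumor neutrophil replicates 1 to 4 and at 0.919, 0.869, 0.257 and 0.984 in their blood counterparts from tumor-bearing mice. The lowest tumor library was thus above the highest blood library, and replicates 1 and 2 were above 3 and 4. The log2 fold change was 4.28 ± 0.59 (SE), adjusted p = 0.00114. Hspa1b, the near-identical neighbor, stood at 12.5, 8.79, 4.51 and 4.70 in the tumor and 0.554, 0.672, 0.234 and 1.00 in blood, with a log2 fold change of 3.87 ± 0.59 (SE), adjusted p = 0.00178. Dnajb1, the HSP40 that loads clients onto HSP70, reached 18.7, 5.48, 6.99 and 6.10 in the tumor against 3.53, 5.39, 4.07 and 5.72 in blood. Replicate 1 lay far above the blood libraries, and the groups overlapped (log2 fold change 1.22 ± 0.47 (SE), adjusted p = 0.104).

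Both nucleotide exchange factors of HSP70 rose. Hsph1, the HSP110 gene, had levels of 14.4, 3.27, 3.39 and 4.33 in tumor neutrophils and 0.129, 0.0850, 0.0805 and 0.234 in blood neutrophils, a log2 fold change of 5.81 ± 0.71 (SE), adjusted p = 0.000772. Bag3, which links HSP70 to small heat shock proteins and autophagy, had levels of 9.32, 0.916, 1.09 and 1.70 against 0.0230, 0.0559, 0.0426 and 0.259, a log2 fold change of 5.36 ± 1.13 (SE), adjusted p = 0.00863. Replicate 1 was the highest of the 4 tumor libraries for both genes, and no tumor library overlapped a blood library. Constitutive Hspa8 stood at 0.605, 0.555, 0.455 and 0.531 in the tumor and 1.41, 0.480, 1.29 and 1.45 in blood. Those 2 groups overlapped.

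Hsp90aa1, the inducible HSP90, rose from 1.59, 1.32, 2.12 and 2.16 in blood to 13.9, 14.2, 5.75 and 7.82 in tumor neutrophils, with no overlap and a log2 fold change of 2.75 ± 0.43 (SE), adjusted p = 0.00199. Hspb1 was near the limit of counting in blood neutrophils, at 0.0174, 0.244, 0.0389 and 0.0484, and stood at 8.49, 3.02, 2.15 and 3.56 in the tumor (log2 fold change 5.88 ± 1.01 (SE), adjusted p = 0.00323). Of the mitochondrial chaperonin, the ring gene Hspd1 had 1.14, 0.266, 0.278 and 0.205 in the tumor against 0.0469, 0.101, 0.0342 and 0.0794 in blood (log2 fold change 3.09 ± 0.85 (SE), adjusted p = 0.0301). Its partner Hspe1 had 1.30, 0.154, 0.362 and 0.404 against 0.237, 0.10, 0.249 and 0.236, and the groups overlapped.

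Tumor neutrophil replicate 1 was the library highest in epithelial markers and had the lowest sum of neutrophil markers, 1735 TMM-rescaled RPKM against up to 15515 in the other 3. Without it, 6 genes passed: the log2 fold change was 4.01 for Hspa1a, 3.48 for Hspa1b, 4.94 for Hsph1, 5.25 for Hspb1 and 3.85 for Bag3, and Hspd1 no longer passed at 2.10 (adjusted p = 0.0583). Leaving out a blood library moved folds the other way, to 7.26 for Hspb1 without replicate 2 and 6.49 for Bag3 without replicate 4, and Hspd1 was also lost without any 1 of the 4 blood libraries, with no filter (2.92, adjusted p = 0.0640) and with limma on log2(RPKM + 1) (0.41, adjusted p = 0.169), where Bag3 was lost as well (1.47, adjusted p = 0.0815). As a percentage of the tumor epithelial mean, Hspa1a in tumor neutrophils stood at 134, 131, 56.0 and 48.5 in replicates 1 to 4, above the epithelial markers in each, which stood at 88.8, 27.9, 26.9 and 7.63. Hsp90aa1 stood at 86.6, 88.4, 35.8 and 48.7, above the markers in replicates 2 to 4. Hspd1 stood at 87.2, 20.4, 21.3 and 15.7, below the markers in replicates 1 to 3 and above them in replicate 4, and Bag3 at 95.3, 9.36, 11.2 and 17.4, below them in replicates 2 and 3. Hsph1 stood at 77.7, 17.7, 18.3 and 23.3 and Hspb1 at 55.7, 19.8, 14.1 and 23.3, above the markers in replicate 4 alone. The part of epithelial RNA in these folds was not tested beyond these values.

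**Figure D2:**
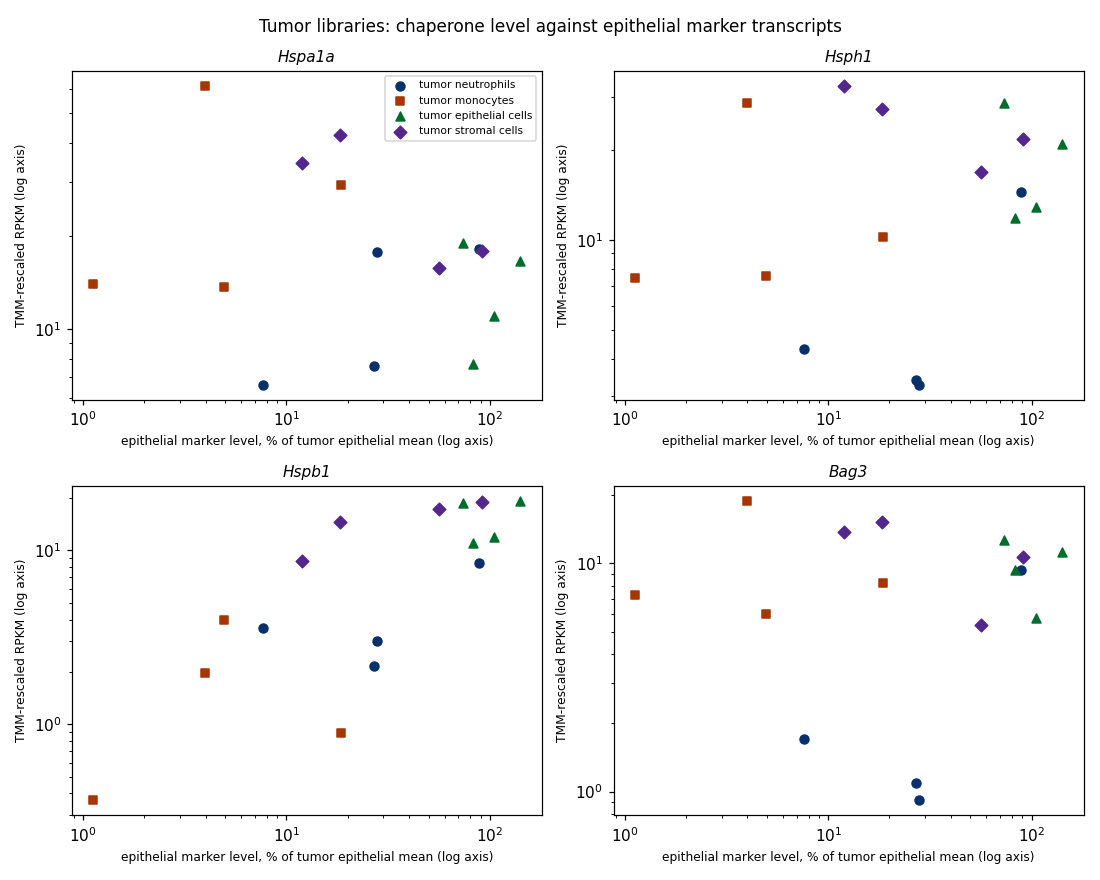
Level of Hspa1a, Hsph1, Hspb1 and Bag3 (TMM-rescaled RPKM, log axis) against the median of the epithelial marker genes (percentage of the tumor epithelial mean, log axis), 1 point per tumor library and a symbol per cell type. Tumor monocytes, at 1.12% to 18.6% on the lower axis, held Hspa1a at 13.7 to 61.5, while tumor neutrophil replicate 1, at 88.8%, was the highest of the 4 tumor neutrophil libraries in every panel.

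In the wider chaperone lists, each gene that passed in tumor neutrophils was higher. In every list but that of the endoplasmic reticulum, most genes did not pass. Over all genes tested in this comparison, 12.5% were higher. The wider cytosolic heat shock list also held Hspa13 and Serpinh1, whose proteins lie in the endoplasmic reticulum. Its median log2 fold change was 1.77 beside 0.11 over all genes. Of its 34 tested genes, 10 rose and none fell. They included Hsp90ab1, the constitutive HSP90, at 2.99 (adjusted p = 0.00114), the autophagy receptor Sqstm1 at 2.39 (adjusted p = 0.000772), the small heat shock protein Hspb8 at 6.55 (adjusted p = 0.0008) and the HSP110 family member Hspa4 at 1.83 (adjusted p = 0.00222). In the endoplasmic reticulum, 9 of 16 chaperone and unfolded protein response genes rose and none fell (median 2.00), among them Hspa5, the resident HSP70 (BiP), at 2.28 (adjusted p = 0.00256), Hsp90b1 at 3.61 (adjusted p = 0.00112), the lectin chaperone Canx at 2.97 (adjusted p = 0.00165) and the disulfide isomerase Pdia4 at 6.56 (adjusted p = 0.00218). Of 9 tested mitochondrial chaperones and proteases, 4 rose, led by the mitochondrial HSP70 Hspa9 at 4.10 (adjusted p = 0.0189). Of 8 subunits of TRiC, the cytosolic chaperonin that folds actin and tubulin, Tcp1 and Cct6a rose. Immediate early genes, which tissue dissociation is known to induce, rose for 7 of 16 and fell for none, with Nr4a1 at 4.67 (adjusted p = 0.00267) and Atf3 at 4.52 (adjusted p = 0.00279). The summed level of the 16 genes was 747, 4015, 1415 and 1163 TMM-rescaled RPKM in tumor neutrophils and 724, 666, 1366 and 1274 in the blood, with overlap, and its part in the chaperone folds was not tested.

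Monocytes gave 6 higher genes and none lower in the tumor, where 17.1% of 15280 genes were called (10.9% higher, 6.28% lower). The 6 were Hspa1a, Hspa1b, Hsph1, Hsp90aa1, Hspb1 and Bag3, with log2 fold changes of 1.64 to 3.76 for the 5 genes with counts in both groups. Dnajb1 and Hspd1 had folds above 1 on the log2 scale but did not pass, and Hspa8 and Hspe1 overlapped between the groups. All tumor libraries were above all blood libraries for 7 of the 10 genes, and for 11.5% of 23279 genes with at least 10 counts in total. They were below for 0 of the 10 and for 8.89% of those genes. Bag3 in the blood monocytes of tumor-bearing mice averaged 3.26, against 0.0952 in the blood neutrophils.

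Hspa1a stood at 14.0, 29.3, 13.7 and 61.5 in tumor monocyte replicates 1 to 4 and at 1.92, 10.9, 1.98 and 1.43 in blood monocytes of tumor-bearing mice, a log2 fold change of 2.91 ± 0.73 (SE), adjusted p = 0.0209. The groups did not overlap, but tumor replicate 4 and blood replicate 2 lay far above the rest of their groups. Without tumor replicate 4 the change was 2.28 and no longer passed (adjusted p = 0.0596), nor did it without blood replicate 1 (2.65, adjusted p = 0.0674), 3 (2.67, adjusted p = 0.0574) or 4 (2.62, adjusted p = 0.0549). Without blood replicate 2 it was 4.08. Hspa1b had 10.9, 21.5, 5.77 and 44.2 in the tumor against 0.829, 3.40, 1.14 and 0.859 in blood, a log2 fold change of 3.76 ± 0.69 (SE), adjusted p = 0.00422, which was 3.08 without tumor replicate 4 and 4.48 without blood replicate 2 and passed in both. Dnajb1 reached 3.68, 8.12, 2.47 and 14.5 against 2.57, 3.85, 1.01 and 0.712, with overlap and a log2 fold change of 1.86 ± 0.64 (SE), adjusted p = 0.0735.

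The exchange factor Hsph1 had 7.46, 10.2, 7.59 and 28.5 in tumor monocytes and 1.27, 1.65, 1.06 and 1.21 in blood monocytes, with a log2 fold change of 3.39 ± 0.45 (SE), adjusted p = 0.000666 that was 2.72 without tumor replicate 4. Bag3 had 7.28, 8.19, 6.0 and 18.8 against 3.91, 3.95, 2.59 and 2.59, a log2 fold change of 1.64 ± 0.37 (SE), adjusted p = 0.0127 that was lost in the fit of all 40 libraries (1.63, adjusted p = 0.0763). The inducible HSP90 gene Hsp90aa1 had 10.6, 13.8, 8.72 and 22.2 against 3.09, 3.83, 1.42 and 1.91, a log2 fold change of 2.46 ± 0.38 (SE), adjusted p = 0.00163. For these 3 genes the lowest tumor library exceeded the highest blood library. Hspb1 had at most 3 counts in each blood monocyte library of tumor-bearing mice and 0.365, 0.890, 3.97 and 1.96 in the tumor, which is at least 44.9-fold higher against a floor of 3 counts per blood library (adjusted p = 0.00188). Hspd1 had 0.383, 0.487, 0.298 and 0.869 against 0.167, 0.287, 0.208 and 0.147, groups that did not overlap, yet its log2 fold change of 1.35 ± 0.55 (SE), adjusted p = 0.126 did not pass.

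Epithelial markers in the tumor monocytes stood at 1.12, 18.6, 4.93 and 3.99% of the tumor epithelial mean, and Hspa1a in the same libraries at 103, 216, 101 and 452%. Hsph1 stood at 40.2, 54.9, 40.9 and 154% and Bag3 at 74.4, 83.7, 61.3 and 192%, each above the epithelial markers in all 4 libraries. Hspb1 was the exception in replicate 2, at 2.40, 5.84, 26.1 and 12.8% in replicates 1 to 4. Summed immediate early genes were 629, 889, 787 and 947 in tumor monocytes and 456, 498, 147 and 155 in their blood counterparts without overlap, and 8 of 16 of those genes rose and none fell. Their part in the chaperone folds was not tested. Summed erythroid and platelet markers were 0.699 to 2.60 in tumor monocytes and 3.10 to 289 in their blood counterparts, without overlap. The part of these markers was not tested either.

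Among the wider lists, 9 of 35 genes of the cytosolic list rose in tumor monocytes and none fell (median 0.78, beside -0.03 over all genes). They included the HSP40 gene Dnaja1 at 2.30 (adjusted p = 0.000136), Sqstm1 at 2.86 (adjusted p = 0.000302), the HSP70 family member Hspa13 at 2.11 (adjusted p = 0.0015) and Hsp90ab1 at 1.42 (adjusted p = 0.00258). The endoplasmic reticulum list moved most widely: 13 of 17 genes rose and none fell (median 1.47), including Hspa5 at 3.49 (adjusted p = 7.22e-06), Pdia6 at 2.21 (adjusted p = 0.000216), Manf at 2.27 (adjusted p = 0.000322) and the large HSP70 relative Hyou1 at 1.93 (adjusted p = 0.000852). Hspa9 at 1.25 (adjusted p = 0.013) and its nucleotide exchange factor Grpel1 at 1.29 (adjusted p = 0.0443) were the 2 of 10 mitochondrial genes that rose. No TRiC subunit passed in either direction with edgeR.

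An interaction term tested whether the blood-to-tumor change differed by cell type. It called 3.99% of 17465 genes (2.73% higher, 1.26% lower) and 0 of the 10 chaperones. With edgeR 2 had an unadjusted p under 0.05, limma-voom called 0 and DESeq2 called 2. With the animal as a random block, limma-voom also called 0. The 2 were Bag3, whose rise was larger in neutrophils by 3.54 ± 1.07 (SE), adjusted p = 0.0709, and Hsph1, larger by 2.26 ± 0.75 (SE), adjusted p = 0.0958. Bag3 passed without tumor neutrophil replicate 2 (3.85, adjusted p = 0.0322) or blood neutrophil replicate 4 (4.78, adjusted p = 0.0257), and Hsph1 passed without tumor monocyte replicate 4 (2.93, adjusted p = 0.0395). Without tumor neutrophil replicate 1 the differences were 2.12 for Bag3 and 1.45 for Hsph1. Of the other lists, the TRiC subunits Tcp1 and Cct6a, and Pdia4 and Canx of the endoplasmic reticulum, rose more in neutrophils, and Dnaja1 rose more in monocytes.

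**Figure D3:**
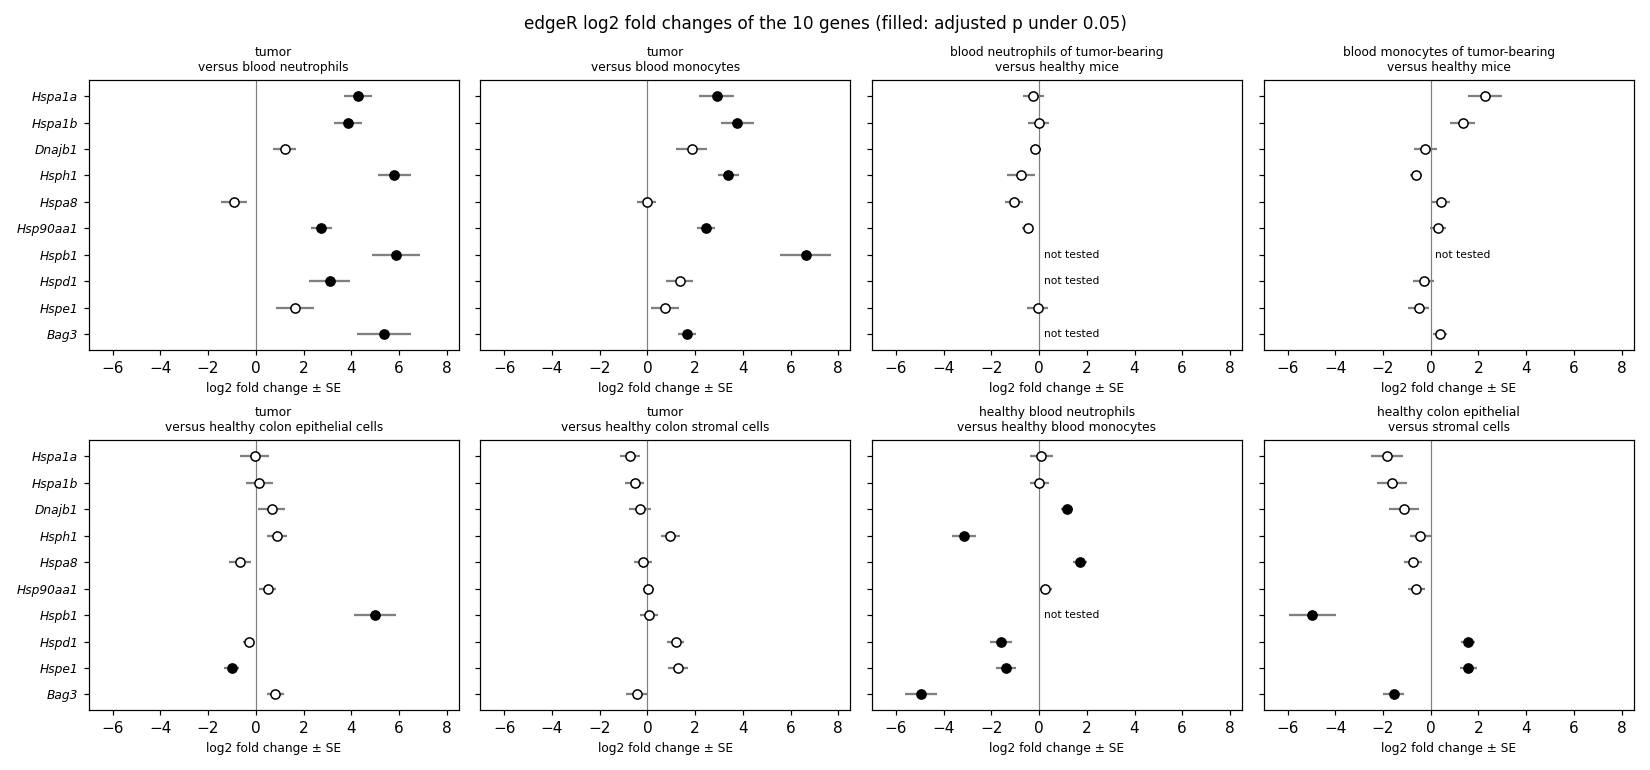
Log2 fold changes with standard errors from edgeR for the 10 genes in 8 comparisons (tumor with blood, blood of tumor-bearing with healthy mice, tumor with healthy colon, and healthy cell types with each other); filled points passed at an adjusted p under 0.05. Tumor against blood has 7 filled points in neutrophils and 6 in monocytes, all on the right, and the blood comparisons have none; the fold of Hspb1 in monocytes depends on the prior count, since blood was at or under the floor.

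Blood of tumor-bearing and healthy mice was compared next, which asks for a difference in chaperone RNA before the cells reach the tumor. In neither cell type did any of the 10 genes pass. In blood neutrophils edgeR, limma-voom and DESeq2 each called 0 of the 7 genes tested, in a comparison that called 6.52% of 13360 genes (3.59% higher, 2.93% lower). Hspb1, Hspd1 and Bag3 had too few counts to be tested. Only Hspa8 had an unadjusted p under 0.05, with 1.41, 0.480, 1.29 and 1.45 in tumor-bearing and 3.23, 2.00, 2.76 and 1.57 in healthy mice (log2 fold change -1.04 ± 0.38 (SE), adjusted p = 0.137). Its groups did not overlap, and neither did those of Hsp90aa1, at 1.59, 1.32, 2.12 and 2.16 and 2.39, 2.23, 2.99 and 2.51 (adjusted p = 0.277). Of 22266 genes with at least 10 counts in total, 6.17% were lower without overlap and 5.42% higher. Hspa1a stood at 0.919, 0.869, 0.257 and 0.984 and 0.750, 0.575, 1.03 and 1.23, with overlap. Hspa1b ranged over 0.234 to 1.00 and 0.479 to 0.856, Dnajb1 over 3.53 to 5.72 and 4.19 to 6.57, Hsph1 over 0.0805 to 0.234 and 0.0819 to 0.439 and Hspe1 over 0.10 to 0.249 and 0.179 to 0.271, each with overlap. Of the endoplasmic reticulum genes, Hspa5 at -1.09 (adjusted p = 0.0257) and the lectin chaperone Calr at -1.24 (adjusted p = 0.0247) fell and none rose, and 2 cytosolic genes rose, Hspa2 at 1.56 (adjusted p = 0.0317) and Bag4 at 1.62 (adjusted p = 0.0471).

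In blood monocytes, where 0.216% of 15313 genes were called (0.0914% higher, 0.124% lower), each of the 3 tools called 0 of 9 tested chaperones, and 3 had an unadjusted p under 0.05. Hspa1a stood at 1.92, 10.9, 1.98 and 1.43 in tumor-bearing and 0.271, 1.14, 0.797 and 1.12 in healthy mice, and the groups did not overlap (log2 fold change 2.28 ± 0.71 (SE), adjusted p = 0.283). Of 22756 genes with at least 10 counts in total, 2.66% were higher without overlap and 3.2% lower. Hspa1b stood at 0.829, 3.40, 1.14 and 0.859 and 0.330, 0.868, 0.630 and 0.617 (log2 fold change 1.34 ± 0.52 (SE), adjusted p = 0.442). Hsph1 pointed the other way, at 1.27, 1.65, 1.06 and 1.21 and 1.48, 1.70, 2.79 and 1.96 (log2 fold change -0.61 ± 0.25 (SE), adjusted p = 0.48). Dnajb1 ranged over 0.712 to 3.85 and 1.68 to 2.87, Hspa8 over 0.609 to 1.72 and 0.593 to 0.914, Hsp90aa1 over 1.42 to 3.83 and 1.24 to 2.45 and Bag3 over 2.59 to 3.95 and 1.38 to 3.37. Hspd1 ranged over 0.147 to 0.287 and 0.224 to 0.284 and Hspe1 over 0.348 to 0.504 and 0.451 to 0.773. All 6 overlapped, and Hspb1 had too few counts to be tested. Replicate 2 was the highest library of tumor-bearing mice for both inducible HSP70 genes. No gene of the other lists passed here. Blood libraries of both cell types also held erythroid and platelet transcripts. Summed levels in monocytes were 3.10 to 289 in tumor-bearing and 1.87 to 312 in healthy mice. In blood neutrophils they were 8.93 to 760 and 5.67 to 564, and in tumor neutrophils 3.95 to 55.2. Tumor stromal libraries held 66.7 to 1573 and healthy stromal ones 2.10 to 661. The part of these transcripts was not tested.

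In epithelial cells the largest log2 fold change among these genes between tumor and healthy colon was that of Hspb1. Of the 10 chaperones, Hspb1 rose and Hspe1 fell, in a comparison that called 22.6% of 16085 genes (10.6% higher and 12% lower), so the share of chaperones called was no higher than that of all genes. Hspb1, which keeps unfolded proteins soluble, stood at 11, 18.8, 19.3 and 11.9 in tumor epithelial replicates 1 to 4 and at 0.903, 0.0126, 0.169 and 0.986 in healthy colon. All tumor libraries were above all healthy ones, by a log2 fold change of 5.0 ± 0.87 (SE), adjusted p = 0.00212, or 5.64 without healthy replicate 1. The healthy libraries differed widely among themselves, and the lowest rested on 1 count. All tumor libraries were above all healthy ones for 11.6% of 23855 genes with at least 10 counts in total, and below for 10.8%.

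Hspe1, the lid of the mitochondrial chaperonin, stood at 1.48, 1.60, 1.83 and 0.867 in tumor and 2.23, 2.92, 3.92 and 2.77 in healthy epithelial cells, a log2 fold change of -1.01 ± 0.32 (SE), adjusted p = 0.0463. The groups did not overlap, but the call was lost in 7 of the 8 fits that left out a library, all but the one without healthy replicate 1, with log2 fold changes of -1.12 to -0.82, and with RLE size factors (-0.99, adjusted p = 0.0519), with no filter (-0.96, adjusted p = 0.0974), with at least 10 counts in every library (-0.96, adjusted p = 0.0511), in the fit of all 40 libraries (-1.03, adjusted p = 0.164) and with limma on log2(RPKM + 1) (-0.25, adjusted p = 0.688). Its ring partner Hspd1 stood at 1.04, 1.35, 1.68 and 1.15 and 1.74, 1.76, 1.62 and 1.41, with overlap. The inducible HSP70 genes did not pass: Hspa1a stood at 7.69, 19.0, 16.6 and 11 in tumor and 14.5, 3.43, 5.37 and 32.5 in healthy cells, where replicate 4 alone was above every tumor library, and Hspa1b ranged over 6.29 to 16.4 and 2.84 to 22.4. Healthy replicate 4 had the highest rescaling factor of all libraries (4.40), and ribosomal RNA of mitochondria took 79.0% of its counts. On the deposited RPKM, Hspa1a averaged 16.4 ± 7.33 (SD) in tumor and 7.20 ± 3.31 (SD) in healthy cells. Hsph1 was higher by 0.89 ± 0.40 (SE), adjusted p = 0.145, and Bag3 by 0.82 ± 0.34 (SE), adjusted p = 0.114, neither past the threshold. Dnajb1 ranged over 12.5 to 31.2 and 3.75 to 25.6, Hsp90aa1 over 11.6 to 18.9 and 6.40 to 17.9, and Hspa8 over 0.450 to 1.57 and 0.618 to 1.88.

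Around these genes, 11 of 37 tested genes of the cytosolic list rose in tumor epithelial cells and none fell. The median log2 fold change of the list was 0.41 beside -0.01 over all genes. Cryab, like Hspb1 a small heat shock protein, rose by 6.91 ± 0.96 (SE), adjusted p = 0.000606. The constitutive HSP90 gene Hsp90ab1 rose by 0.81 (adjusted p = 0.00579), heat shock factor Hsf2 by 1.61 (adjusted p = 0.00622) and Stip1, which joins HSP70 and HSP90, by 1.01 (adjusted p = 0.00835). Of the endoplasmic reticulum genes, 5 of 17 rose and none fell, with Hspa5 at 1.49 (adjusted p = 0.00328) and Hsp90b1 at 1.00 (adjusted p = 0.00444). Of the mitochondrial list, 2 of 10 genes fell and none rose: the protease subunit Afg3l2 at -0.80 (adjusted p = 0.00867) and the mitochondrial HSP90 Trap1 at -0.63 (adjusted p = 0.0474). Immediate early genes rose for 3 of 16 (Socs3, Ier3 and Gadd45b).

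**Figure D4:**
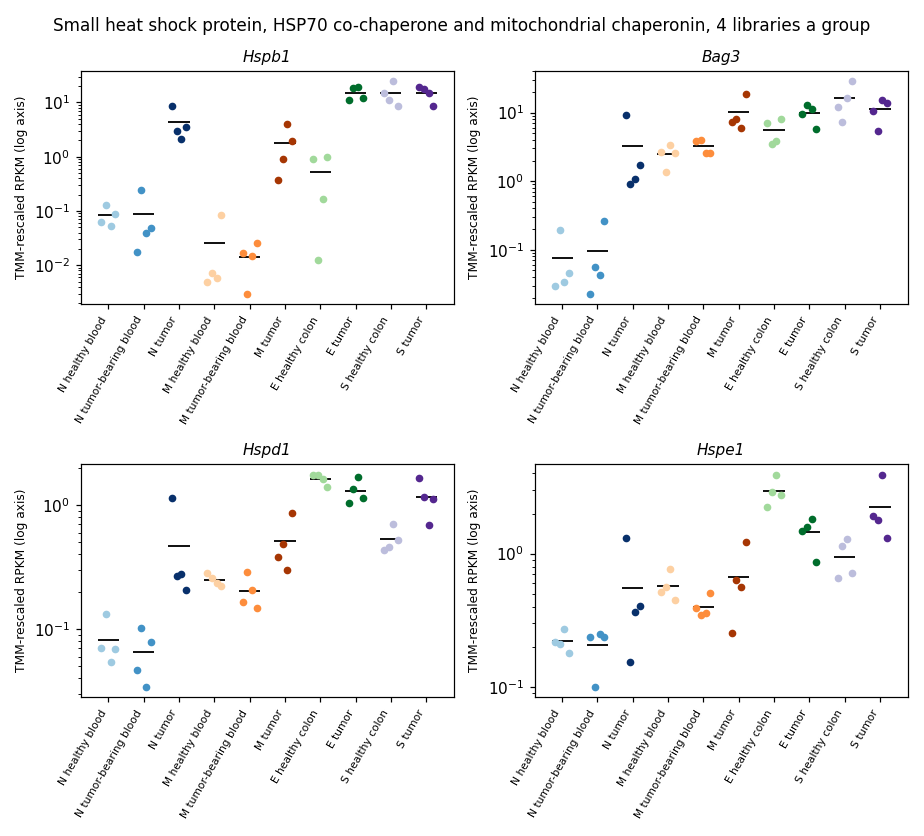
TMM-rescaled RPKM (log axis) of the small heat shock protein Hspb1, the HSP70 partner Bag3 and the mitochondrial chaperonin genes Hspd1 and Hspe1, 1 point per library and a line at the mean of each group of 4; a level of 0 is drawn at the bottom of the axis. Hspb1 in the tumor epithelial libraries sat at 11 to 19.3, and no healthy epithelial library exceeded 0.986.

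In stromal cells edgeR called 0 of the 10 chaperones between tumor and healthy colon, limma-voom 0 and DESeq2 2, in a comparison that called 9.55% of 19081 genes (3.99% higher, 5.56% lower). An unadjusted p under 0.05 was reached by 3. Hspd1 stood at 1.64, 1.17, 0.698 and 1.12 in tumor and 0.435, 0.461, 0.698 and 0.523 in healthy stromal cells (log2 fold change 1.19 ± 0.35 (SE), adjusted p = 0.0665), and Hspe1 at 1.93, 1.78, 3.89 and 1.32 and 0.662, 1.14, 1.28 and 0.715 (log2 fold change 1.29 ± 0.43 (SE), adjusted p = 0.0955). DESeq2 called both of these. Without tumor stromal replicate 3, Hspd1 passed at 1.38 (adjusted p = 0.0494). Hsph1 stood at 21.7, 16.8, 27.2 and 32.7 and 6.98, 9.18, 20.5 and 16.2 (log2 fold change 0.96 ± 0.39 (SE), adjusted p = 0.17). Hspa1a was at 17.9, 15.8, 42.6 and 34.6 in the tumor and 37.3, 42.4, 76.9 and 34.3 in healthy colon, and the groups overlapped. Hspb1 was at 19.1, 17.4, 14.7 and 8.64 and 14.8, 11.1, 24.5 and 8.76, with overlap.

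Hspa1b ranged over 11.4 to 28.7 in tumor and 23.7 to 51.9 in healthy stromal cells, Dnajb1 over 11.7 to 35.9 and 15.6 to 50.3, Hspa8 over 0.927 to 2.79 and 1.69 to 3.13, Hsp90aa1 over 14.9 to 18 and 14.6 to 19.2 and Bag3 over 5.36 to 15.2 and 7.35 to 28.5, all with overlap. Summed neutrophil markers stood at 8.12 to 1179 in tumor and 4.39 to 28.8 in healthy stromal libraries, with overlap, and fibroblast markers at 4.92 to 23.3 and 238 to 1442, without overlap, and their part in these values was not tested.

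Tumor stromal replicates 1 and 2 stood at 91.1% and 56.4% of the tumor epithelial mean in epithelial markers. Without both, 0 chaperones passed, and the log2 fold changes were 1.24 for Hsph1, 0.83 for Hspd1 and 1.51 for Hspe1. Of the other lists, the cytosolic genes Ppid and Hspa4l and the TRiC subunit Cct2 rose, and Hspa2, the endoplasmic reticulum HSP40 Dnajb9 and the immediate early genes Fos and Egr1 fell. The summed immediate early genes were 717, 602, 686 and 542 in tumor and 1119, 862, 863 and 2166 in healthy stromal cells, lower in every tumor library than in every healthy one.

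The change from healthy colon to tumor differed between epithelial and stromal cells for 3 of the 10 chaperones, in an interaction that called 15.1% of 20901 genes (7.21% higher, 7.93% lower). Hspb1 rose more in epithelial cells, by 4.88 ± 1.01 (SE), adjusted p = 0.00437. Hspd1 and Hspe1 went the other way: the change in epithelial cells was below that in stromal cells by -1.49 ± 0.40 (SE), adjusted p = 0.0199 for Hspd1 and by -2.30 ± 0.53 (SE), adjusted p = 0.00887 for Hspe1, both on the log2 scale. Without tumor stromal replicates 1 and 2, Hspb1 (5.28) and Hspe1 (-2.51) passed and Hspd1 did not (-1.12, adjusted p = 0.102). Hspd1 was also lost in the fit of all 40 libraries (-1.45, adjusted p = 0.135). With the animal as a random block, limma-voom called the same 3 genes. The other 7 had adjusted p of 0.167 (Bag3) to 0.968 (Hsph1). Of the wider cytosolic list, 6 genes had a higher change in epithelial than in stromal cells and none a lower one. They included the small heat shock proteins Cryab at 8.25 (adjusted p = 0.000488), Hspb6 at 2.26 (adjusted p = 0.0201) and Hspb8 at 5.94 (adjusted p = 0.028). The collagen chaperone gene Serpinh1 was at 4.94 (adjusted p = 0.0228). Such a difference can hold a rise in epithelial cells or a fall in stromal cells. Summed fibroblast markers stood at 4.92 to 23.3 in tumor and 238 to 1442 in healthy stromal libraries, and their part was not tested. Of 10 mitochondrial genes, Trap1 and Afg3l2 passed with a lower change in epithelial cells and the protease Clpp with a higher one. On the deposited RPKM without rescaling, limma called 5 of the 10 chaperones in this interaction, all higher, against 1 higher and 2 lower here.

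The healthy cell types differed in chaperones before any tumor. Healthy blood neutrophils and monocytes were apart for 6 of 9 tested genes, in a comparison that called 50.8% of 15033 genes (24.2% higher, 26.6% lower), a share of chaperones not far above that background. Neutrophils held less Bag3, at 0.0295, 0.197, 0.0343 and 0.0465 against 2.64, 1.38, 3.37 and 2.58 in monocytes, a log2 fold change of -4.94 ± 0.67 (SE), adjusted p = 0.00027 that was -6.04 without neutrophil replicate 2. They also held less Hsph1, at 0.439, 0.260, 0.126 and 0.0819 against 1.48, 1.70, 2.79 and 1.96 (log2 fold change -3.14 ± 0.52 (SE), adjusted p = 0.00079), less Hspd1 (-1.61 (adjusted p = 0.0144)) and less Hspe1 (-1.38 (adjusted p = 0.0228)). Hspd1 lost its call without neutrophil replicate 3 (-1.45, adjusted p = 0.0569), and Hspe1 without neutrophil replicate 2 (-1.34, adjusted p = 0.0581) or 4 (-1.27, adjusted p = 0.0669) or monocyte replicate 3 (-1.19, adjusted p = 0.0744). Constitutive Hspa8 was higher in neutrophils, at 3.23, 2.00, 2.76 and 1.57 against 0.662, 0.914, 0.752 and 0.593 (log2 fold change 1.71 ± 0.30 (SE), adjusted p = 0.00124), as was Dnajb1 (1.15 (adjusted p = 0.00377)). Dnajb1 lost its call in the fit of all 40 libraries (1.17, adjusted p = 0.102) and with limma on log2(RPKM + 1) (0.29, adjusted p = 0.205). Several of these libraries shared an animal, and limma-voom with the animal as a random block called 6 genes too. Hspa1b and Hsp90aa1 overlapped between the groups, and Hspb1 had too few counts to be tested. Inducible Hspa1a overlapped, at 0.750, 0.575, 1.03 and 1.23 and 0.271, 1.14, 0.797 and 1.12. All 8 TRiC subunits were lower in neutrophils (median -2.24), as were 11 of 17 endoplasmic reticulum genes with 3 higher, while 15 of 16 immediate early genes were higher and 1 lower.

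Healthy epithelial and stromal cells differed for 4 chaperones, where 38.1% of 18468 genes were called (15.6% higher, 22.5% lower), a like share. On the deposited RPKM without rescaling, limma called 7 chaperones lower in epithelial cells and 0 higher, against 2 lower and 2 higher here. Both mitochondrial chaperonin genes were higher in epithelial cells, Hspd1 at 1.74, 1.76, 1.62 and 1.41 against 0.435, 0.461, 0.698 and 0.523 (log2 fold change 1.56 ± 0.29 (SE), adjusted p = 0.00243) and Hspe1 at 2.23, 2.92, 3.92 and 2.77 against 0.662, 1.14, 1.28 and 0.715 (log2 fold change 1.57 ± 0.36 (SE), adjusted p = 0.00695). Hspb1 was lower, at 0.903, 0.0126, 0.169 and 0.986 against 14.8, 11.1, 24.5 and 8.76 (log2 fold change -4.96 ± 1.00 (SE), adjusted p = 0.0037), and Bag3 was lower by -1.55 ± 0.43 (SE), adjusted p = 0.0189. Bag3 lost its call without epithelial replicate 2 (-1.34, adjusted p = 0.0563) or 3 (-1.38, adjusted p = 0.0604) or stromal replicate 4 (-1.08, adjusted p = 0.0525), and in the fit of all 40 libraries (-1.52, adjusted p = 0.0606). Dnajb1, Hsph1, Hspa8 and Hsp90aa1 overlapped between the groups and did not pass. Hspa1a, at 14.5, 3.43, 5.37 and 32.5 in epithelial and 37.3, 42.4, 76.9 and 34.3 in stromal cells, did not pass (-1.82 (adjusted p = 0.0589)), but without epithelial replicate 4 it did (-2.65, adjusted p = 0.00760), and so did Hspa1b (-2.31, adjusted p = 0.0125). That replicate had the highest rescaling factor of all libraries, 4.40. The mitochondrial list leaned toward epithelial cells, with 5 of 10 genes higher and none lower (median 0.99). Of 38 genes of the cytosolic list, 13 were lower, led by Cryab at -8.02 (adjusted p = 0.000395), and 5 higher. Summed immediate early genes were 770.4, 216, 248 and 349.8 in epithelial and 1119, 862, 863 and 2166 in stromal cells, without overlap, and 10 of 16 were lower in epithelial cells, whose part in the chaperone values was not tested.

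Within libraries, the ratio of Hspa1b to Hspa1a ranged from 0.312 to 1.22 in the 40 libraries with a median of 0.721, and the lowest value was in blood monocytes of tumor-bearing mice (0.312 to 0.600). The ratio of Hspe1 to Hspd1 ranged from 0.579 to 7.26 with a median of 1.70, and its group medians were lowest in tumor epithelial cells (1.14) and tumor neutrophils (1.23). When each library was set against the mean of its own group, Hspa1a and Hspa1b deviated together (Pearson r = 0.949 over 40 libraries), and so did Hsph1 and Bag3 (0.857) and Dnajb1 and Hsp90aa1 (0.782). Hspa8 had r between -0.234 and 0.350 with the other genes. Libraries share depth and preparation, so these values are descriptions. Hspa1a and Hspa1b also share near-identical bases, so the split of reads between them is uncertain and bears on their r.

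Over the 10 group means of log2(TMM-rescaled RPKM + 1), the genes most like the sum of Hspa1a and Hspa1b among 13449 were Pim3, a serine/threonine kinase gene (r = 0.995), then Gm12346 (0.965), Gm5844 (0.964), Hsp90aa1 (0.964) and Gm5511 (0.962). Of these, 3 are the processed copies of Hsp90aa1. Hsph1 ranked 24 (0.927) and Bag3 33 (0.916), while Hspa8 had r = 0.122. The genes most like Hspd1 were its pseudogene Hspd1-ps3, Gm13500, the DNA ligase gene Lig1, the citric acid cycle gene Idh3a and the ribosome assembly gene Tsr1, with r from 0.982 to 1.00. Hspe1 ranked 38 (0.961).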

How the data were processed

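RNA of cells sorted from mouse colon tumors, healthy colon and blood was sequenced in 40 libraries, without strand marking. The authors mapped reads to mm10 with Bowtie2 and obtained counts for Ensembl genes from HTSstation, and deposited expected counts, which are not normalized, and RPKM values made from them. The annotation release and the treatment of reads that fit several places are not given in the sources used here. Groups and replicate numbers came from the sample labels. The expected counts were rounded to whole numbers, and each comparison was fitted on its own libraries over all genes kept by filterByExpr, with TMM normalization, in edgeR 4.0.16 (R 4.3.3), by its quasi-likelihood test with robust dispersions, after tests on simulated data. A gene passed at a Benjamini-Hochberg adjusted p under 0.05 over all genes tested, and every adjusted p in the text is of this kind unless another tool is named. Interactions were fitted over the 16 libraries concerned. The rescaling of RPKM by TMM factors was added after the deposited RPKM had been examined.

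The 10 genes, the other gene lists and the marker lists were chosen with earlier results of these data known. All 10 were described in each comparison of 2 groups, the interactions name those with an unadjusted p under 0.05 or a call by another tool, and of each other list at most 4 passing genes per direction are named, those with the lowest adjusted p. Alternatives were RLE size factors, DESeq2 1.42.0, limma-voom from limma 3.58.1, other filters, a fit of all 40 libraries, a replicate block, a fold threshold, limma on log2(RPKM + 1) and log2(RPKM + 0.1), Hspa1a and Hspa1b summed, healthy blood as the reference, and leaving out libraries. Summing the genes with their copies, and the animal as a random block in limma-voom, were chosen after seeing the data. Every column of the deposited tables was used.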

Additional observations from a re-analysis of the deposited data

Results flagged for a closer look

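In 15 of the 100 sets of 4 libraries (10 genes in 10 groups), the highest or lowest library stood apart from the other 3 by a gap above the limit of Dixon's ratio (0.829 of the range for 4 libraries), which chance passes in about 5% of independent sets of normally distributed values. The levels here were not on a log scale and the sets reuse the same 40 libraries, so the 15 sets are not a test against that rate. Of the libraries that stood apart, tumor neutrophil replicate 1 was the highest of its group for Dnajb1 (18.7 TMM-rescaled RPKM), Hsph1 (14.4), Hspd1 (1.14) and Bag3 (9.32), and it was also the tumor neutrophil library highest in epithelial markers. Blood neutrophils of tumor-bearing mice had 5 such values: Hspa1a was lowest in replicate 3 (0.257), Hspa8 (0.480) and Hspe1 (0.10) were lowest and Hspb1 (0.244) highest in replicate 2, and Bag3 was highest in replicate 4 (0.259). Blood monocyte replicate 2 of tumor-bearing mice was the highest for Hspa1a (10.9) and Hspa1b (3.40). The rest were Hsph1 in tumor monocyte replicate 4 (28.5), Hspa1b in healthy stromal replicate 3 (51.9), Hspb1 in healthy blood monocyte replicate 4 (0.0860) and Bag3 in healthy blood neutrophil replicate 2 (0.197), each the highest of its group.

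For 3 genes the change from healthy colon to tumor differed between epithelial and stromal cells by the edgeR interaction test. On the log2 scale, epithelial minus stromal, the difference was 4.88 for Hspb1, -1.49 for Hspd1 and -2.30 for Hspe1.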

How the results depend on the processing

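The counts of 7 and 6 higher genes in tumor neutrophils and tumor monocytes stayed within 1.5 times under every alternative but 1: with at least 10 counts required in every library, 4 genes passed in neutrophils, where Hspb1, Hspd1 and Bag3 were then not tested. Against healthy blood in place of blood of tumor-bearing mice, 8 and 7 genes passed. With the genes summed with their copies, and Hspa1a and Hspa1b as 1 gene, 6 and 5 of 9 passed. In tumor against healthy epithelial cells, 1 gene in place of 2 passed with RLE size factors, with no filter, in the fit of all 40 libraries, with an added log2 fold threshold of 1.5, with limma on log2(RPKM + 1) or log2(RPKM + 0.1), and 0 passed with at least 10 counts in every library, which left Hspb1 untested. In stromal cells DESeq2 called 2 genes in place of 0. Healthy epithelial against stromal cells gave 7 genes in place of 4 with limma on either RPKM scale, and the epithelial and stromal interaction 5 in place of 3. The neutrophil and monocyte interaction gave 2 genes with DESeq2, 1 with at least 10 counts in every library and 2 in the fit of all 40 libraries, in place of 0, and the Hsph1 difference there was reversed at -0.0298 with limma on log2(RPKM + 1). Where no cause is named, the cause was not tested.

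With 1 library left out at a time, the number of genes passing ranged over 6 to 8 for neutrophils, 5 to 7 for monocytes, 0 to 0 for both blood comparisons, 1 to 2 for epithelial cells, 0 to 1 for stromal cells, 5 to 6 between healthy blood cell types, 3 to 6 between healthy colon cell types, 0 to 1 for the neutrophil and monocyte interaction and 3 to 3 for the epithelial and stromal one. For a gene and comparison with an unadjusted p under 0.05, the side of the threshold was kept in 376 of these fits, lost in 23 and gained in 9, and in the other alternatives kept in 494, lost in 33 and gained in 27. For the 50 others, the sign changed in 103 of 1129 fits.

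The replicate numbers did not pair the samples of any comparison as a whole: within a comparison, the correlation of deviations between same-numbered libraries ranged from -0.114 to 0.211 and was not above 0.1 for every pair in any comparison. With the replicate number as a block, 6 genes passed for neutrophils, 6 for monocytes, 1 for epithelial cells, 5 and 4 between healthy cell types, 2 for the epithelial and stromal interaction, and 0 for the rest. The animals named in the titles ran across these numbers. Over all genes, deviations from the group mean had a median correlation of 0.000571 (-0.262 to 0.259) in 29 pairs of libraries of 1 animal and different groups, and of -0.00132 (-0.305 to 0.307) in 691 pairs of different animals. With the animal as a random block in limma-voom, a choice made after seeing the data in which a pool and the animals it names counted as 1, 6 genes passed between healthy blood cell types, 3 in the epithelial and stromal interaction and 0 in the neutrophil and monocyte interaction, with estimated correlations within an animal of 0.324, 0.0337 and -0.0753. The comparisons of tumor with blood and of healthy colon cell types shared 1 animal each, too few to estimate a correlation, and the others shared none. DESeq2 gave no adjusted p for Bag3 in neutrophils. Genes with few counts, such as Hspb1, Hspd1 and Bag3 in blood neutrophils, limit what depth allows. Shared bases limit Hsp90aa1, Hspd1, Hspe1, Hspb1, Hspa8 and the split of Hspa1a and Hspa1b.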
